A study of Mus musculus with 12 samples.

Results

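The genes that code for plasma membrane and lysosomal amino acid transporters were followed in C57MG cells treated with Rspo2, Wnt3a or both. They were chosen by name, as every gene on the array called Slc1, Slc3, Slc6, Slc7, Slc36, Slc38 or Slc43 with a member number, which gave 55 of the 27962 gene names on the array. Where several probes carried the same name, the probe with the highest mean signal over all arrays stood for the gene. C57MG is an established line of mammary epithelial cells from the mouse. The cells were kept in plain medium without serum for 24 h with recombinant human Rspo2 at 100 ng/ml, recombinant mouse Wnt3a at 100 ng/ml, both at these doses, or the carrier protein BSA. Each of the 4 groups had 3 monolayers, so 12 single-color arrays were hybridized. All come from 1 cell line, for which the labels name no transgene or deletion, and the p-values measure the spread between monolayers of that line. A level below is the log2 of the background-subtracted intensity of a probe less the 75th percentile of its array, so that a probe at the 75th percentile has the level 0. Levels of different probes are not comparable with each other.

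Amino acid carriers fall into families that differ in cargo and in mechanism. Carriers of the Slc1 family and most of the Slc6 and Slc38 families use the sodium gradient, those of the Slc36 family use protons, and the light chains of the Slc7 family exchange amino acids across the membrane as partners of a heavy chain, Slc3a2 (4F2hc, CD98) or Slc3a1 (rBAT). In the mammary gland they feed milk protein synthesis, and in growing cells several are induced by Atf4 when amino acids run short. Of the 55 genes, 11 carry something other than the amino acids of proteins, or have no assigned cargo, among them the noradrenaline, dopamine and serotonin carriers Slc6a2, Slc6a3 and Slc6a4, the creatine and taurine carriers Slc6a8 and Slc6a6, the betaine and GABA carriers Slc6a12, Slc6a11 and Slc6a13, the purine base carrier Slc43a3 and the orphan Slc6a16.

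The 12 arrays were comparable in signal. The array has 41174 distinct probes, of which 51.28% to 64.15% gave a signal well above background, depending on the array, and the 75th percentile lay between 774 and 1146 intensity units. With 3 arrays in a group, their number sets the precision of each value. The arrays were on 3 slides: all BSA arrays shared slide 1 with Rspo2 replicate 1, the remaining Rspo2 arrays shared slide 2 with Wnt3a replicates 1 and 2, and the arrays of the combination shared slide 3 with Wnt3a replicate 3. BSA thus never lay on one slide with Wnt3a or with the combination, and the comparisons of these groups are also comparisons of slides. In a fit that held slide as a further term, 2 of the 32 changes counted below stayed past an adjusted p of 0.05, both of Slc1a3, beside 4.95% of such changes over all probes, and the median standard error rose from 0.121 to 0.26. The normexp background correction subtracts the local background, models what remains on each array and adds 50 units. The added units by themselves make log2 changes of dim probes smaller. With this correction 2 of the 32 also stayed, Slc1a3 and Slc36a1 with both proteins, beside 5.23% over all probes. The label mammary epithelial was checked against marker genes. The basal keratin Krt14 was well above background on all 12 arrays, and so was Krt8, though dim at 57.3 units. Of 6 epithelial markers 3 were detected, and Cdh1, Epcam and Krt18 were not, being well above background on 0, 2 and 3 arrays. Of 6 mesenchymal markers 5 were detected, and Vim, Col1a1, Col1a2, Col3a1 and Pdgfra were well above background on all 12. With the combination Krt14 rose by 1.24 on the log2 scale (limma adjusted p = 8.28e-06), Krt8 fell by 1.15 (adjusted p = 0.000365) and Pdgfra fell by 1.37 (adjusted p = 8.77e-06), and the basal keratin Krt5 had an interaction, defined below, of 1.63 (adjusted p = 0.0075). The part of such marker changes in the results below was not tested. In these bulk samples fewer cells of a kind and less RNA per cell cannot be told apart.

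Promoters of 4 genes are shown. Slc1a3, the glutamate carrier, and Slc36a1, the lysosomal carrier, are the genes whose falls with both proteins stayed past the threshold after the normexp correction, and Slc7a1 and Slc7a11 were chosen because theirs are the promoters with a motif match, although their changes turned direction under that correction. Each is the sequence from 250 bases before to 50 bases after a RefSeq start site, 5′ to 3′ on the strand of the gene, from GRCm38.p6, at chr15:8710758-8711057 (minus strand), chr11:55204090-55204389 (plus strand), chr5:148392766-148393065 (minus strand) and chr3:50443564-50443863 (minus strand). Capitals mark matches on either strand to CTTTGAT, the core of the site bound by Tcf/Lef factors, or to TGATGNAA, the core of the composite site of C/EBP and Atf factors.

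Slc1a3: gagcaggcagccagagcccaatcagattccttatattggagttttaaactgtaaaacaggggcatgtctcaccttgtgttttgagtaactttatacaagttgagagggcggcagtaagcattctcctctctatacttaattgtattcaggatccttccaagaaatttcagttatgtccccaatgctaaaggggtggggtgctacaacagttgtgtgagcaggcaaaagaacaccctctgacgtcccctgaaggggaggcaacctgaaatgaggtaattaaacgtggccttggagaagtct

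Slc36a1: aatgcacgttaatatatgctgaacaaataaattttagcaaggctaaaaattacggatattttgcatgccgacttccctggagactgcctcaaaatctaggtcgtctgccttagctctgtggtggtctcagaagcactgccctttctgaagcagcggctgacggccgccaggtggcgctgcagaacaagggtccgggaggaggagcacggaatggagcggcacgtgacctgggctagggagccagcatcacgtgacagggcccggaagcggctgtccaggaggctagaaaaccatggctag

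Slc7a1: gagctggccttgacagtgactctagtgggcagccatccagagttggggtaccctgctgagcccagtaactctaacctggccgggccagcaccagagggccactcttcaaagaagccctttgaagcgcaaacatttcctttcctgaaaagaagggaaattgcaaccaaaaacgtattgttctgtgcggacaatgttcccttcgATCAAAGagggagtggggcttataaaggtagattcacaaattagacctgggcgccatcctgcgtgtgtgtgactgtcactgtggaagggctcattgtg

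Slc7a11: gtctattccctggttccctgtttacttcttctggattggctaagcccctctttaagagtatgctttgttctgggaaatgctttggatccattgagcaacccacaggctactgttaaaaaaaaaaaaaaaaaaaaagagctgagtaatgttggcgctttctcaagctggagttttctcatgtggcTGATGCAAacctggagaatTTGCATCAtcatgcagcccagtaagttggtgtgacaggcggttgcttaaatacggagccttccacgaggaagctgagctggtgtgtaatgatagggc

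The Slc7a1 promoter held ATCAAAG, the reverse of the first motif, beginning at base -48 from the start site, while the other start site of this gene had no match. The Slc7a11 promoter held the second motif in both orientations, TGATGCAA beginning at base -66 and TTGCATCA at base -47. The Slc1a3 and Slc36a1 promoters had neither. Among 32851 promoters of this length, 3.73% held the first motif and 3.97% the second. Promoters were at hand for 9 of the 16 genes that passed the test in some comparison, and 1 of the 9 held each motif. A match describes letters in this window and shows nothing about binding.

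Detection came first. Detection required a signal well above background on each of the 3 arrays of some group, and 27 of the 55 genes met this, of which 20 were well above background on all 12 arrays. The other 28 were not tested, and 18 of them were not well above background on any array, and their mean signals lay between 5.31 and 24.3 units. In the Slc1 family the glutamate carriers Slc1a1, Slc1a2, Slc1a6 and Slc1a7 were not detected, while Slc1a3 (GLAST) and the neutral amino acid exchangers Slc1a4 (ASCT1) and Slc1a5 (ASCT2) were. In the Slc6 family 8 of 19 genes were detected, and among those not detected were the GABA carriers Slc6a11 and Slc6a13, the dopamine carrier Slc6a3 and the epithelial neutral amino acid carriers Slc6a14, Slc6a18, Slc6a19 and Slc6a20. Both heavy chains were detected, Slc3a2 on 12 arrays and Slc3a1 on 6. Of the light chains 5 of 10 were detected, namely Slc7a5 (LAT1), Slc7a6 (y+LAT2), Slc7a7 (y+LAT1), Slc7a11 (xCT) and Slc7a15, as were the cationic carriers Slc7a1, Slc7a2 and Slc7a3 among 5. The Slc38 family gave Slc38a1 and Slc38a2 of 5, the Slc36 family Slc36a1 and Slc36a4 of 4, and the Slc43 family Slc43a2 and Slc43a3 of 3.

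**Figure D1:**
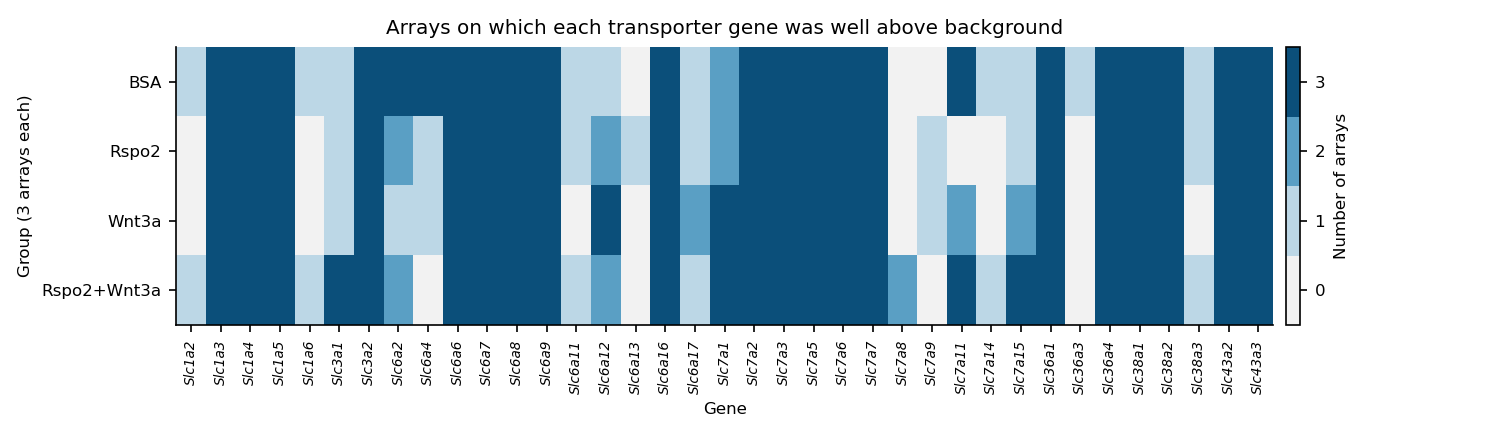
Number of the 3 arrays of each group (rows) on which a transporter gene (columns) was well above background, from 0 (pale) to 3 (dark), for the 37 genes well above background on at least 1 array. The columns dark throughout are the 20 genes well above background on all 12 arrays.

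Signals of the 27 tested genes ranged from 22.9 to 19090 intensity units with a median of 131, against a median of 714 units over all tested probes, and 7 were under 50 units. Those 7 were also the genes not well above background on all 12 arrays: Slc3a1, Slc6a2, Slc6a4, Slc6a12, Slc7a1, Slc7a11 and Slc7a15. Counts of changes are given for all 27 tested genes and for the 20 seen on all 12 arrays. Slc6a2 and Slc6a4 met the detection rule only through BSA, which favors falls from BSA in the counts over all 27. Slc6a12 met it only through Wnt3a, and Slc3a1 and Slc7a15 only through the combination. No spot of these genes was saturated.

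Across the 3 comparisons with BSA, 16 of the 27 tested genes passed an adjusted p of 0.05 (limma, Benjamini-Hochberg over all 22750 tested probes) in at least 1, and 7 had a measured change of at least 2-fold that passed in at least 1 of all 5 comparisons. Over all tested probes these shares were 47.1% and 6.63%. All 3 comparisons share the BSA arrays. The lysosomal carrier Slc36a1 was the 1 gene that passed with all 3 treatments. Together the 5 comparisons gave 32 changes that passed, counting a gene once for each comparison.

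With Rspo2 alone, 0 genes rose and 4 fell, among them the cystine carrier Slc7a11. Its measured change was past 2-fold, but its Rspo2 signal was at background. With that signal held at a floor, described below, the fall was 1.77-fold. Over all tested probes 10.9% rose and 5.93% fell, and with the 2-fold requirement 0.101% rose and 0.62% fell. Among the 20 genes seen on all 12 arrays, 0 rose and 3 fell, and their median log2 change was -0.11 beside 0.03 for all probes seen on all 12. With Wnt3a 3 genes rose and 7 fell, with 1 fall past 2-fold, while 18.3% of all probes rose and 13.2% fell, 0.404% and 2.11% of them by 2-fold or more. Among the 20 genes these counts were 2 and 5, with a median of -0.07 beside 0.02. With Rspo2 plus Wnt3a 2 genes rose and 10 fell, and past 2-fold 1 rose and 3 fell, while over all probes 21.9% rose and 17.3% fell, 1.28% and 3.79% of them past 2-fold. Among the 20 genes 1 rose and 7 fell, with a median of 0.03 beside 0.05. Adding Rspo2 to Wnt3a raised 1 gene and lowered 1, none by 2-fold, beside 1.78% and 2.49% of all probes (0.413% and 0.334% past 2-fold). At an unadjusted p under 0.05 that comparison had 9 genes.

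**Figure D2:**
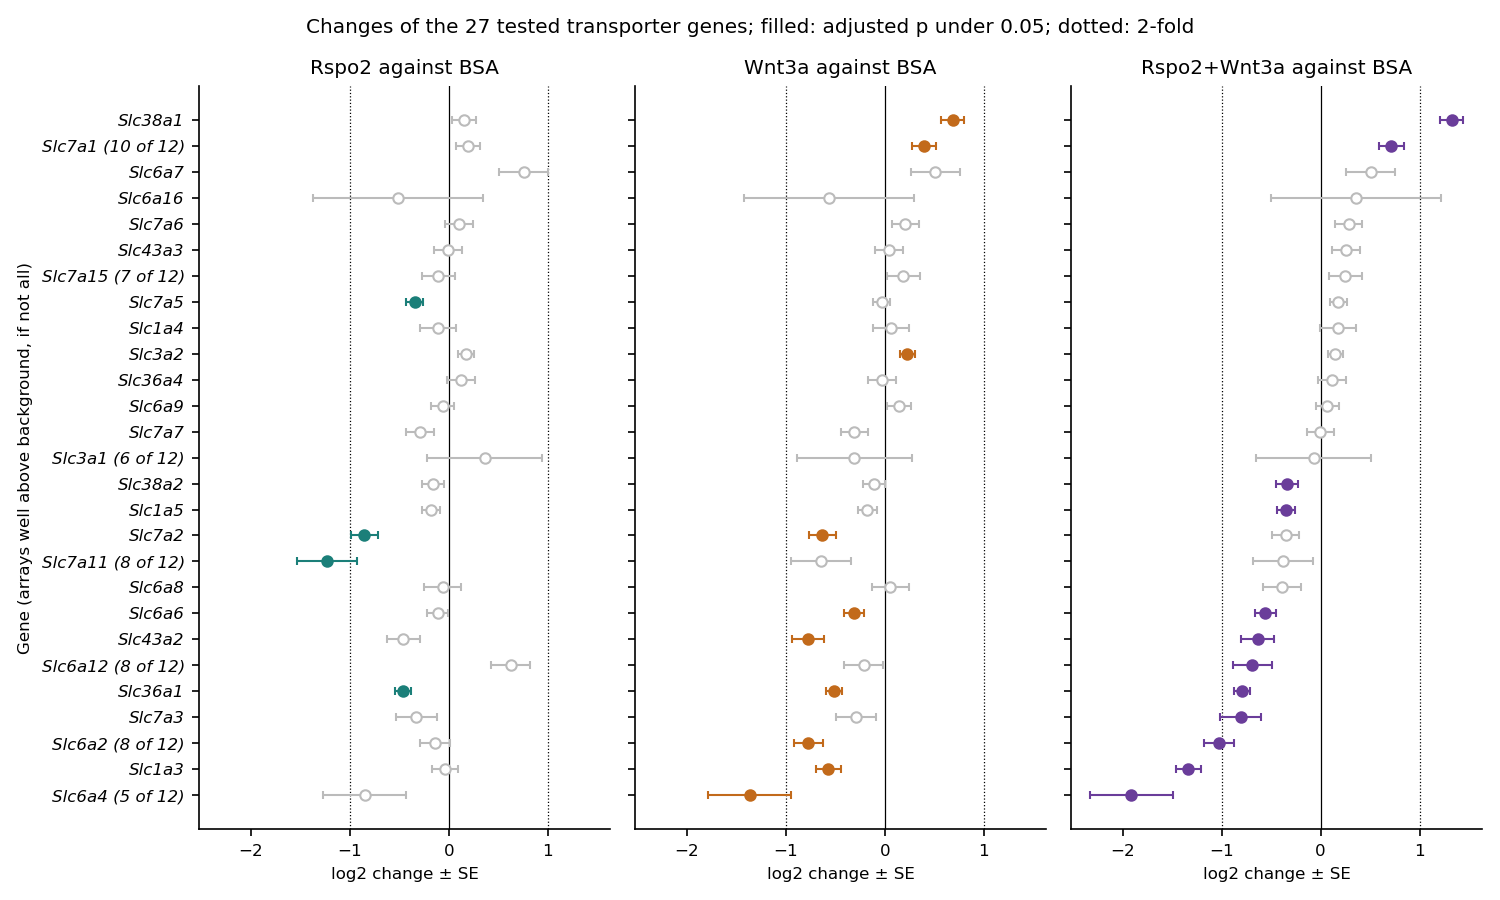
Log2 change from BSA with its SE (horizontal axis) of the 27 tested transporter genes (vertical axis, ordered by the change with both proteins) with Rspo2, Wnt3a and both. Filled points passed an adjusted p of 0.05, dotted lines mark 2-fold, and numbers beside names give the arrays well above background where they were fewer than 12. Filled points lie mostly to the left of 0, from 4 falls with Rspo2 to 10 with both.

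Slc1a3, the glutamate and aspartate carrier GLAST at chr15:8634124-8710807, fell with Wnt3a and further with both proteins. Its level was 4.62, 4.35 and 4.11 on the BSA arrays, 4.27, 4.29 and 4.40 with Rspo2, 3.62, 3.79 and 3.96 with Wnt3a, and 3.103, 2.958 and 3.003 with both. The BSA and Rspo2 arrays overlapped, all Wnt3a arrays were below them and all arrays of the combination were lower still. Rspo2 gave a log2 change of -0.04 ± 0.13 (SE, limma adjusted p = 0.857). Wnt3a gave -0.57 ± 0.13 (adjusted p = 0.00739), and both gave -1.34 ± 0.13 (adjusted p = 2.93e-05), which is 2.53-fold lower. Rspo2 added to Wnt3a lowered it by a further 1.70-fold (log2 change -0.77 ± 0.13, adjusted p = 0.00649). The gene had 2 more probes, both well above background on all arrays, with changes of -1.61 and -1.85 with both proteins and of -0.787 and -1.002 with Wnt3a, so all 3 probes ran the same way. In the fit with the slides the change with both was -1.67 ± 0.29 (adjusted p = 0.0243) and that from Wnt3a to both was -0.94 ± 0.18 (adjusted p = 0.0428). The second of these values is the difference of the 3 arrays of the combination from Wnt3a replicate 3, all on slide 3. It thus rests on 1 Wnt3a array.

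The neutral amino acid exchangers of the same family changed less. Slc1a5, which carries glutamine, had mean levels of 2.13 ± 0.05 (SD, n = 3) with BSA and 1.78 ± 0.06 with both, a log2 change of -0.35 ± 0.09 (SE, limma adjusted p = 0.0123). Slc1a4 did not pass in any comparison, with changes from BSA between -0.11 and 0.17.

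The glutamine carriers of the Slc38 family moved in opposite directions. Slc38a1 (SNAT1, chr15:96571418-96643438) had levels of -4.06, -3.92 and -3.94 with BSA, -3.96, -3.52 and -3.97 with Rspo2, -3.31, -3.35 and -3.21 with Wnt3a, and -2.70, -2.72 and -2.53 with both. The Rspo2 arrays overlapped those of BSA, and the arrays of the combination were the highest, with Wnt3a between. It rose by 0.69 ± 0.12 (SE) on the log2 scale with Wnt3a (limma adjusted p = 0.00252) and by 1.32 ± 0.12 with both (adjusted p = 2.02e-05), which is 2.50-fold and the 1 rise past 2-fold from BSA. From Wnt3a to both the change was 0.64 ± 0.12 (adjusted p = 0.0127), and 0.56 within slide 3. Without Wnt3a replicate 2 that change was 0.61 (adjusted p = 0.0612), and without replicate 3 of the combination 0.58 (adjusted p = 0.0561). In the fit with the slides the change with both was 0.99 ± 0.28 (adjusted p = 0.118), and after the normexp correction it was 0.37 (adjusted p = 0.746) and that with Wnt3a 0.0029 (adjusted p = 0.998). Its other 5 probes were not well above background on any array. Slc38a2 (SNAT2), an Atf4 target that takes up neutral amino acids, fell by 0.34 ± 0.11 with both (adjusted p = 0.0313), a change that missed the threshold without any of 5 of the 12 arrays (BSA replicates 1, 2 and 3 and replicates 1 and 2 of the combination; changes -0.31 to -0.36, adjusted p up to 0.0932). Its 3 other probes gave -0.36, -1.31 and -0.62 with both (adjusted p = 0.00929, 8.66e-05 and 0.0142), all falls of unequal size, and 1 of them passed 2-fold.

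Of the cationic amino acid carriers, which bring in arginine, lysine and ornithine, 3 were tested, and Slc7a2 and Slc7a3 fell while Slc7a1 rose. Slc7a2 (CAT2, chr8:40862341-40922070) had levels of -1.80, -2.10 and -2.11 with BSA, -2.61, -2.86 and -3.10 with Rspo2, -2.67, -2.55 and -2.68 with Wnt3a, and -2.17, -2.47 and -2.43 with both. Every array with a single protein was below every BSA array and below every array of the combination. It fell by 0.85 ± 0.14 (SE) on the log2 scale with Rspo2 (limma adjusted p = 0.00867) and by 0.63 ± 0.14 with Wnt3a (adjusted p = 0.00648), while the change with both was -0.35 ± 0.14 (adjusted p = 0.0618). Within slide 1 Rspo2 replicate 1 differed from the BSA mean by -0.61. Slc7a1 (CAT1) went the other way, with levels of -4.87, -4.84 and -4.60 with BSA, -4.56, -4.55 and -4.61 with Rspo2, -4.25, -4.43 and -4.44 with Wnt3a, and -4.23, -4.17 and -3.77 with both. It rose by 0.40 ± 0.12 with Wnt3a (adjusted p = 0.0326; up to 0.101 without BSA replicate 1 or 2 or Wnt3a replicate 1 or 2, changes 0.33 to 0.42) and by 0.71 ± 0.12 with both (adjusted p = 0.00132). The gene is dim, at a mean of 43.01 units, and with the normexp background correction the changes were -0.14 and -0.15, so their direction depends on how background was taken off. Slc7a3 (CAT3) had levels of -2.32, -2.54 and -2.57 with BSA, -2.79, -2.70 and -2.92 with Rspo2, -3.06, -2.17 and -3.08 with Wnt3a, and -3.22, -3.26 and -3.38 with both. The Wnt3a arrays straddled those of BSA and Rspo2, and it fell by 0.81 ± 0.20 with both (adjusted p = 0.00981).

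**Figure D3:**
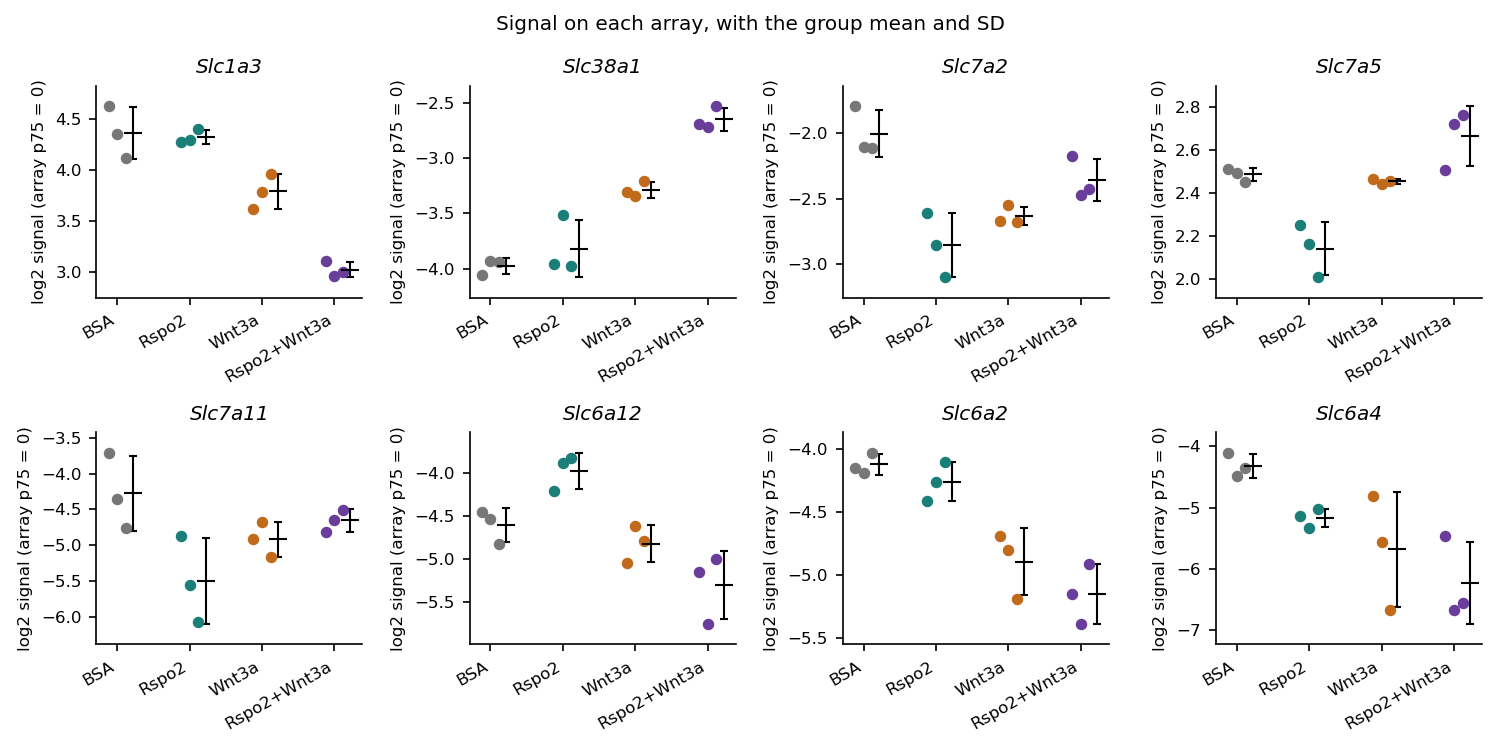
Level on each array (points, log2 intensity less the 75th percentile of the array) with the group mean and SD (black) for the 7 transporter genes with a measured change of at least 2-fold in a comparison and for Slc7a5. Slc1a3 steps down from BSA to both proteins and Slc38a1 steps up, whereas Slc7a2 and Slc7a5 are lowest with Rspo2 alone; vertical scales differ between panels.

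Among the 2 heavy chains and 5 light chains tested, 2 fell with Rspo2, 1 rose with Wnt3a and none passed with both. Over all probes 5.93% fell with Rspo2, 18.3% rose with Wnt3a, and 21.9% rose and 17.3% fell with both. Slc3a2, the heavy chain 4F2hc, had levels of 4.17, 4.30 and 4.17 with BSA, 4.33, 4.43 and 4.41 with Rspo2, 4.41, 4.48 and 4.44 with Wnt3a, and 4.49, 4.29 and 4.31 with both. Its rise with Wnt3a was 0.23 ± 0.08 (SE) on the log2 scale (limma adjusted p = 0.0442), it missed the threshold without any 1 of 10 of the 12 arrays (adjusted p up to 0.124), its other probe gave -0.01, and with quantile normalization the sign turned (-0.07). These 10 were every array but BSA replicate 2 and replicate 1 of the combination. Slc7a5 (LAT1), the light chain that imports leucine and other large neutral amino acids, had levels of 2.51, 2.49 and 2.45 with BSA, 2.25, 2.16 and 2.01 with Rspo2, 2.46, 2.44 and 2.46 with Wnt3a, and 2.51, 2.72 and 2.76 with both. All Rspo2 arrays were below all other arrays. The change with Rspo2 was -0.35 ± 0.09 (adjusted p = 0.0285), with values of -0.28 to -0.36 and adjusted p up to 0.105 without any BSA replicate or Rspo2 replicate 2 or 3, and -0.24 within slide 1.

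Slc7a11, the light chain xCT that takes up cystine in exchange for glutamate (chr3:50364936-50499087), had levels of -3.71, -4.35 and -4.76 with BSA, -4.87, -5.56 and -6.07 with Rspo2, -4.92, -4.68 and -5.16 with Wnt3a, and -4.82, -4.65 and -4.50 with both. The lowest BSA array was just above the highest Rspo2 array, and no Rspo2 array was well above background. The measured change was -1.23 ± 0.31 (SE) on the log2 scale with Rspo2 (limma adjusted p = 0.0271). With the Rspo2 signal held at a floor, the level was 1.77-fold lower than with BSA. This value is the BSA mean over, for each Rspo2 array, the higher of the probe and the lowest signal well above background. It leaves out the spread between arrays and is no firm lower limit. Without BSA replicate 1 or 2 or Rspo2 replicate 2 or 3 the change was -0.95, -1.27, -1.20 and -0.94, with adjusted p from 0.0596 to 0.102. The normexp correction turned it to 0.36, and a second probe, also seen on 8 arrays, gave -0.22 (adjusted p = 0.626). Within slide 1 the difference was -0.60. Slc7a6, Slc7a7 and Slc7a15 did not pass in any comparison, although the second probe of Slc7a6 gave -0.35 with Rspo2 (adjusted p = 0.0462).

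**Figure D4:**
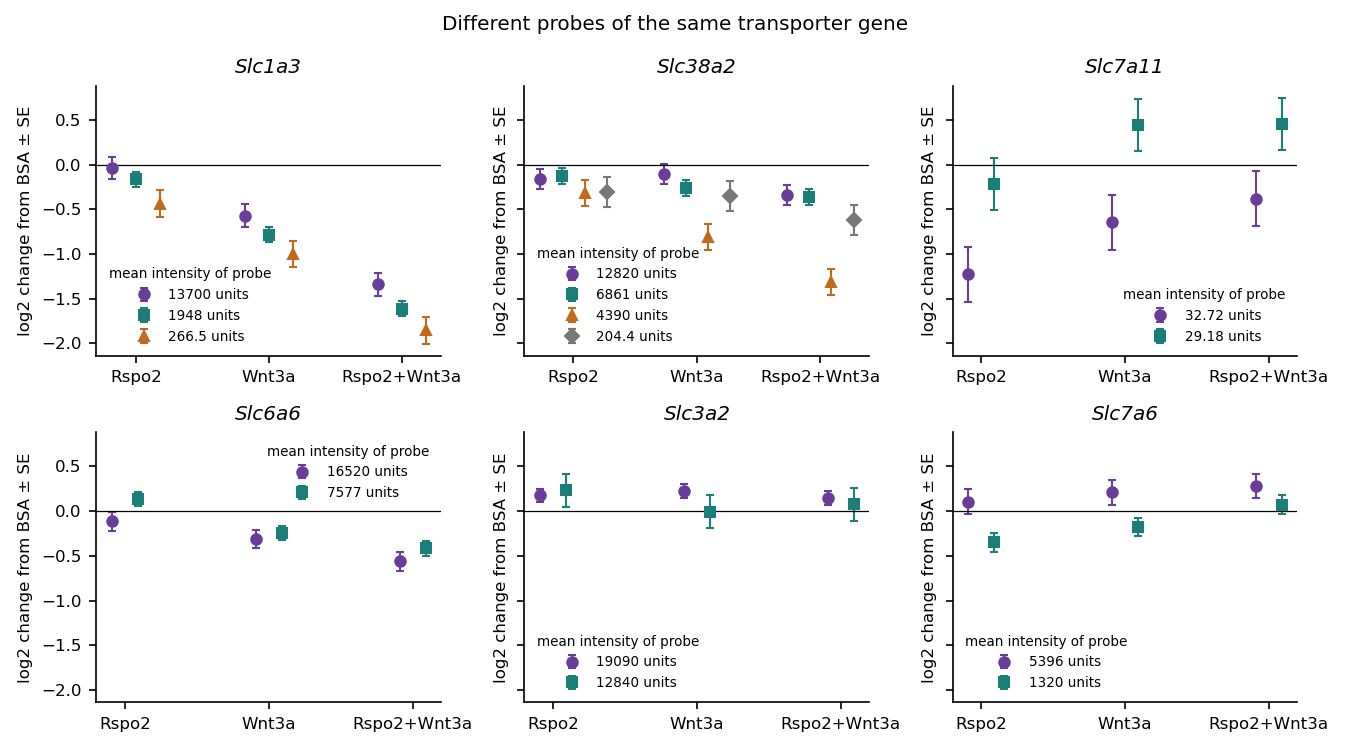
Log2 change from BSA with its SE (vertical axis) with Rspo2, Wnt3a and both, for each tested probe of 6 transporter genes; the legend gives the mean intensity of the probe over all arrays. The 3 probes of Slc1a3 fall together, those of Slc38a2 share a sign but not a size, and the 2 of Slc7a11 lie on opposite sides of 0 with Wnt3a and with both.

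Of the carriers that export or sense amino acids at the lysosome and plasma membrane, Slc36a1 and Slc43a2 fell. Slc36a1 (PAT1), which moves small neutral amino acids with protons and resides partly on lysosomes, had levels of -0.35, -0.31 and -0.40 with BSA, -0.75, -0.76 and -0.94 with Rspo2, -0.79, -0.89 and -0.92 with Wnt3a, and -1.20, -1.20 and -1.05 with both. The BSA arrays were all above the others and the arrays of the combination all below. Its log2 changes were -0.47, -0.51 and -0.80 with Rspo2, Wnt3a and both, each ± 0.08 (SE), with limma adjusted p of 0.0115, 0.00168 and 4.48e-05. With both it stayed past the threshold after the normexp correction (-0.73, adjusted p = 0.019) and not with slide as a term (-0.62, adjusted p = 0.154). The other probe of Slc36a1, at 7.18 units, was not well above background on any array, and the probe used matched no RefSeq transcript. Slc43a2 (LAT4), a carrier of large neutral amino acids, had levels of -2.07, -2.29 and -2.17 with BSA, -2.69, -2.72 and -2.51 with Rspo2, -2.91, -2.80 and -3.14 with Wnt3a, and -3.15, -2.88 and -2.41 with both. No treated array reached the BSA arrays. It fell by 0.77 ± 0.17 with Wnt3a (adjusted p = 0.0062) and by 0.64 ± 0.17 with both (adjusted p = 0.0115). Here too the other probe, at 7.13 units, was not well above background on any array and the probe used matched no RefSeq transcript.

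Of the 8 tested Slc6 genes, 3 fell with Wnt3a and 4 with both, and none rose, beside 13.2% and 17.3% of all probes that fell. Of the 5 seen on all 12 arrays, 1 fell with each, Slc6a6. The 4 that fell with both were Slc6a2, Slc6a4, Slc6a6 and Slc6a12. All 4 are of the 11 genes with other cargo, but so are all of the 8 except Slc6a7 and Slc6a9. The taurine carrier Slc6a6 is the bright one, at 16520 units, and it went from 4.39 ± 0.02 (SD, n = 3) with BSA to 3.83 ± 0.18 with both, a log2 change of -0.56 ± 0.10 (SE, limma adjusted p = 0.00201), and its other probe gave -0.42 (adjusted p = 0.00215). Its change with Wnt3a, -0.31 (adjusted p = 0.0433), missed the threshold in 8 of the 12 fits that left out 1 array, among them those without each BSA replicate (adjusted p up to 0.122).

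Slc6a2, the noradrenaline carrier (chr8:92960470-93001667), had levels of -4.15, -4.19 and -4.03 with BSA, -4.41, -4.26 and -4.11 with Rspo2, -4.69, -4.80 and -5.19 with Wnt3a, and -5.15, -5.39 and -4.92 with both. It is near background, at a mean of 38.4 units and well above background on 8 arrays. The Wnt3a arrays and those of the combination overlapped each other and were all below BSA and Rspo2. The log2 change was -0.77 ± 0.15 (SE) with Wnt3a (limma adjusted p = 0.00413) and -1.03 ± 0.15 with both (adjusted p = 0.000505), which is 2.04-fold; without BSA replicate 3 it was -0.98 and without replicate 2 of the combination -0.91, both under 2-fold. After the normexp correction it was -0.71 (adjusted p = 0.524). Slc6a4, the serotonin carrier (chr11:76998597-77032343), had levels of -4.11, -4.49 and -4.35 with BSA, -5.14, -5.33 and -5.03 with Rspo2, -4.81, -5.56 and -6.68 with Wnt3a, and -5.46, -6.67 and -6.56 with both. Every BSA array was above every treated array. Slc6a4 was well above background on 3, 1, 1 and 0 arrays of the BSA, Rspo2, Wnt3a and combined groups. For Slc6a2 these numbers were 3, 2, 1 and 2. Both genes thus entered the test only through BSA. Such a filter favors falls from BSA, so the separation of their BSA arrays is no independent support. The Wnt3a arrays overlapped both other treated groups, while all Rspo2 arrays were above all arrays of the combination. The fitted changes were -0.85, -1.37 and -1.91 with Rspo2, Wnt3a and both, each ± 0.42, with adjusted p of 0.176, 0.0305 and 0.00479. No array of the combination was well above background, and with that signal held at the floor, as for Slc7a11, the level was 2.28-fold lower than with BSA. The change with Wnt3a rests on few arrays: without BSA replicate 1, 2 or 3 or Wnt3a replicate 2 or 3 the adjusted p was 0.0545 to 0.089, with changes from -0.87 without Wnt3a replicate 3 to -1.45 without BSA replicate 2. In the fit with the slides the changes of Slc6a4 with Wnt3a and both were -0.83 (adjusted p = 0.574) and -0.38 (adjusted p = 0.858), and after the normexp correction -0.61 (adjusted p = 0.72) and -0.90 (adjusted p = 0.458).

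The interaction is the change with both proteins less the sum of the changes with each alone, on the log2 scale, and it asks whether Rspo2 acted differently in the presence of Wnt3a. It passed for 4 of the 27 genes, 2 positive and 2 negative, beside 3.58% and 5.31% of all probes; past 2-fold it was 1 and 1, beside 1.27% and 0.651%. Among the 20 genes seen on all 12 arrays 2 were positive and 1 negative. Slc7a2 had the largest, 1.13 ± 0.19 (SE, limma adjusted p = 0.00953): Rspo2 changed it by -0.85 without Wnt3a and by 0.28 with it. That value stayed between 1.01 and 1.25, with adjusted p up to 0.0265, when any array was left out, and was 0.93 ± 0.25 (adjusted p = 0.143) with slide as a term. After the normexp correction it was 0.27 (adjusted p = 0.916) and the change with Rspo2 was -0.14 (adjusted p = 0.882). Slc7a5 had an interaction of 0.56 ± 0.12 (adjusted p = 0.0261), from -0.35 without to 0.21 with Wnt3a, and 8 of the 12 fits without 1 array gave adjusted p of 0.0542 to 0.0702 with values of 0.49 to 0.57. Slc1a3 had -0.73 ± 0.18 (adjusted p = 0.0357), from -0.04 to -0.77, and 7 of the 12 fits without 1 array gave adjusted p of 0.0691 to 0.0867.

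Slc6a12, the betaine and GABA carrier BGT1 (chr6:121342574-121365773), had the other interaction past 2-fold. Its levels were -4.45, -4.54 and -4.83 with BSA, -4.22, -3.89 and -3.83 with Rspo2, -5.04, -4.62 and -4.80 with Wnt3a, and -5.15, -5.75 and -4.99 with both. The Rspo2 arrays were all above the rest. The interaction was -1.11 ± 0.28 (SE, limma adjusted p = 0.0375), from a change of 0.63 with Rspo2 alone (adjusted p = 0.0513) to -0.48 in the presence of Wnt3a (adjusted p = 0.226), and from BSA to both the gene fell by 0.69 ± 0.20 (adjusted p = 0.0174). The probe is dim, at 36.6 units, and was well above background on 1, 2, 3 and 2 arrays of the BSA, Rspo2, Wnt3a and combined groups, an order that does not follow its signal. In 7 of the 12 fits without 1 array, those without each BSA replicate, Rspo2 replicates 2 and 3, Wnt3a replicate 2 and replicate 2 of the combination, the adjusted p of the interaction was 0.0557 to 0.0908 and the value -0.88 to -1.18. After the normexp correction the interaction was -1.02 (adjusted p = 0.914). The fall with both was -0.62, -0.66 and -0.47 without BSA replicate 1, BSA replicate 2 or replicate 2 of the combination, with adjusted p of 0.0526 to 0.06. The light chain Slc7a11 had an interaction of 1.49 ± 0.43 that missed the threshold (adjusted p = 0.0559).

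The 11 tested genes that passed in no comparison included some with large and uncertain changes. The proline carrier Slc6a7 changed by 0.76 ± 0.25 (SE) with Rspo2 (limma adjusted p = 0.0576). The orphan Slc6a16 had a standard error of 0.86, its BSA arrays alone having an SD of 1.27. The heavy chain Slc3a1 stood at -2.94 on Rspo2 replicate 1 and between -5.72 and -4.93 on the other 11 arrays. The glycine carrier Slc6a9 and the creatine carrier Slc6a8 had changes from BSA of at most 0.15 and at least -0.39. Slc38a10, Slc38a7 and Slc38a9, which the array lists under older names and which the choice by name therefore missed, changed by -0.28, -0.24 and 0.00 with both, and none of them passed.

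Genes that respond to amino acid supply were followed beside the carriers, from lists of textbook genes. Of 21 tested genes of the amino acid response driven by Atf4, 6 rose with Rspo2, 12 with Wnt3a and 11 with both, while 0, 1 and 1 fell, and the 1 was Cebpb. The shares of all probes that rose were 10.9%, 18.3% and 21.9%. No change reached 2-fold, and the median log2 changes were 0.21, 0.34 and 0.31 beside 0.01, 0.00 and 0.04 over all tested probes. These lists are given under the main processing only, and how far their rises depend on scaling was not tested. Several list genes are bright, such as Atf4 at 35190 units. Quantile normalization took the bright carriers Slc3a2 and Slc6a6 from 0.23 to -0.07 and from -0.31 to -0.62 with Wnt3a. The dim Slc7a1 went from 0.40 to 0.85. Nupr1, a stress-induced chromatin protein, rose by 0.93 ± 0.12 (SE, limma adjusted p = 0.000232) with both, and Chac1, which degrades glutathione, by 0.55 ± 0.07 (adjusted p = 0.000228). The asparagine synthetase gene Asns, a standard Atf4 target, changed by 0.12 ± 0.09 (adjusted p = 0.307). Of the 20 cytosolic aminoacyl-tRNA synthetase genes, which charge tRNAs, 3 rose and 1 fell with Rspo2, 7 rose with Wnt3a and 9 with both, beside 10.9%, 18.3% and 21.9% of all probes that rose, and the list medians were 0.07, 0.20 and 0.23. Of 24 tested genes for amino acid sensing and mTORC1, 5 rose and 6 fell with both, shares near the 21.9% and 17.3% of all probes, with a median of 0.05. A further list held genes of glutathione and of wider oxidant defense, such as Txnrd1, Hmox1 and Keap1. Of its 12 tested genes Rspo2 raised 3, Wnt3a 4 and the combination 2, beside 10.9%, 18.3% and 21.9% of all probes. The glutathione synthesis genes Gclc and Gclm changed by -0.08 and 0.09 with both (adjusted p = 0.691 and 0.755). Of 12 tested amino acid carriers outside these families, 3 fell with both, beside 17.3% of all probes, led by the lysosomal histidine and peptide carrier Slc15a3 at -0.94 ± 0.10 (adjusted p = 8.16e-05), together with the sialic acid and aspartate carrier Slc17a5 and the mitochondrial carrier Slc25a29.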

How the data were processed

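The 12 samples are single-color arrays of probes of the mouse transcriptome. The deposited intensity values were made by the authors with Agilent Feature Extraction 9.5.3.1 (version per the submitters' processing notes), which subtracted background; mean signal, local background and spot flags were deposited beside them. The deposited value table holds ratio values, each signal divided by the 75th percentile of its array by the authors.

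Spots marked as uneven or as outliers were left out (1327 of 520548 values), spots of a probe averaged, and the 75th percentile of each array subtracted on the log2 scale. A probe printed more than once was well above background when at least 0.5 of its spots were. One limma 3.58.1 fit (R 4.3.3) over 12 arrays gave 5 comparisons; calls needed an adjusted p under 0.05 and at least 2-fold. Figures used matplotlib 3.10.9. The fit was tested on simulated data. The alternatives changed the background correction, scaling, filter, test, slide term, replicate block, probe choice and arrays included.

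The genes and lists were chosen with earlier results of these data known. Values on every array are given for genes called in a comparison and for the 5 largest rises and falls that passed in each comparison with BSA; others are given by counts and ranges. Of the 55 genes, 50 matched RefSeq by accession, 1 under another symbol (Slc6a20, now Slc6a20b). The marker lists also covered leukocyte, adipocyte and endothelial genes, of which Fabp4, at 430 units, fell by 0.81 with both and had an interaction of -1.28, and Cd3e, at 40.2 units, by 1.01 with Wnt3a, while Ptprc, Adipoq and Pecam1 were not detected. 1 gene of the set is counted but not reported by name.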

Additional observations from a re-analysis of the deposited data

Results flagged for a closer look

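The effect of Rspo2 differed between cells with and without Wnt3a for 4 transporter genes, by the interaction term of the limma fit. On the log2 scale the interaction was 1.13 for Slc7a2, 0.56 for Slc7a5, -0.73 for Slc1a3 and -1.11 for Slc6a12. With slide as a term the values were 0.93, 0.44, -0.85 and -0.89, and none passed an adjusted p of 0.05 (0.143, 0.274, 0.178 and 0.312). The part of the slide in them was not tested beyond this fit.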

How the results depend on the processing

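Of the 32 changes past an adjusted p of 0.05, 2 stayed past it after the normexp background correction, 2 with slide as a term, 18 with no filter on dim probes, 23 with the test limited to probes detected on all 12 arrays, 26 after quantile normalization, 30 with the percentile taken over probes detected on all 12 arrays, and 31 with the authors' value table or with the mean of the detected probes of a gene. Leaving out 1 array kept 22 to 31. The direction turned in 4 cases: after normexp Slc7a1 changed by -0.141 with Wnt3a and -0.145 with both and Slc7a11 by 0.357 with Rspo2, and after quantile normalization Slc3a2 changed by -0.0686 with Wnt3a. The cause was not tested. Normexp moved the median of all probes to 0.15 with Rspo2 and -0.16 for the interaction, and the percentile over probes detected on all 12 arrays moved it to -0.12 with Wnt3a and 0.11 for the interaction.

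Genes changed at least 2-fold numbered 1 with Rspo2, 1 with Wnt3a, 4 with both, 0 on adding Rspo2 to Wnt3a and 2 for the interaction. Without the 2-fold requirement they numbered 4, 10, 12, 2 and 4. Normexp gave 0, 0, 1, 0 and 0, no filter gave 0, 0, 4, 0 and 1, and the test limited to probes detected on all 12 arrays gave 0, 0, 2, 0 and 1. Slide as a term gave 1, 1, 2, 0 and 1, all of them Slc3a1, which stood apart on Rspo2 replicate 1, but for Slc1a3 with both. Fitting only the arrays of the groups compared, the methods' t-test with unadjusted p and the same with adjusted p each gave 0 with Rspo2 and 0 with Wnt3a, and the last gave 1 with both. The mean of the detected probes gave 0 with Rspo2. Leaving out 1 array gave 0 to 1 with Rspo2, 0 to 1 with Wnt3a, 3 to 4 with both and 1 to 3 for the interaction, the 3 without Rspo2 replicate 1, when Slc7a11 was added.

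Replicate numbers are shared between groups, but same-numbered arrays did not deviate together (18 correlations, -0.41 to 0.27, median 0.01), so they were taken as names. With a replicate block 25 of the 32 changes stayed, and 1 gene had an interaction past 2-fold.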
